A study of Mus musculus with 8 samples.

Results

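The genes described here encode enzymes that move amino groups between amino and keto acids, together with the steps that burn GABA. They are 8 of the 52636 mouse genes in the liver count tables. Abat encodes GABA aminotransferase, Aldh5a1 succinic semialdehyde dehydrogenase and Aldh6a1 methylmalonate semialdehyde dehydrogenase. Gpt and Gpt2 encode the cytosolic and mitochondrial alanine aminotransferases, Got1 and Got2 the cytosolic and mitochondrial aspartate aminotransferases, and Tat tyrosine aminotransferase. The rows were found by matching the Ensembl gene identifiers to these symbols in the GRCm38 annotation. Abat was chosen by its measured values in the comparison below, its fold change and p-value between the treatments. The other 7 genes were listed by the reaction they encode, with earlier results of the same livers known, so the differences between the treatments are given for all 8 as a description and support nothing by themselves.

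Livers came from male C57BL/6J mice injected at 7 weeks of age with AAV8, a viral vector that reaches hepatocytes. The vector carried either GFP (AAV8-GFP, 4 mice) or human AGXT (AAV8-AGXT, 4 mice) under the TBG promoter, which is active in hepatocytes. From 8 weeks of age all 8 mice, controls included, ate the MASH diet for 24 weeks, a diet rich in fat, fructose and cholesterol that produces steatohepatitis, and no mice on chow were sequenced here. AGXT encodes alanine-glyoxylate aminotransferase, which detoxifies glyoxylate by taking the amino group of alanine, and the experiment asked what added AGXT does to gene expression in the diseased liver. Each mouse is called by its animal number. The controls given AAV8-GFP are 303, 311, 314 and 315, and the mice given AAV8-AGXT are 308, 309, 316 and 319.

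Aminotransferases use pyridoxal phosphate, the active form of vitamin B6, to pass an amino group from an amino acid to a keto acid, usually with glutamate as the partner. In the liver they feed nitrogen towards urea and carbon towards glucose. Gpt and Got1 are also known from the clinic, since the proteins they encode contribute to ALT and AST, the liver-injury enzymes measured in serum when hepatocytes leak them. GABA, best known as a neurotransmitter, is broken down in mitochondria in hepatocytes as well as in the brain. Abat first turns it into succinic semialdehyde, and Aldh5a1 oxidizes that product to succinate, which enters the citric acid cycle. Abat also acts on beta-alanine, whose product malonate semialdehyde is a substrate of Aldh6a1, the enzyme that also oxidizes methylmalonate semialdehyde from valine.

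The libraries held 17095433 to 28780140 read pairs assigned to genes. The 8 genes had between 683 counts (Aldh5a1) and 34914 counts (Tat) in a mouse, so all 8 passed the filter on low counts that left 15248 genes. At such counts, variation between animals limits the precision more than counting error does. Levels are counts-per-million (CPM) scaled by the TMM factors of edgeR, and folds are of AAV8-AGXT over AAV8-GFP. Of the AAV8-AGXT mice, 308 had the smallest share of its read pairs on genes, 56.3% against at least 62.4% in the others. The tables list mouse genes only, so the human transgene has no row of its own. Mouse Agxt measured 148.3, 179.9, 152.5 and 174.7 CPM in the AAV8-GFP mice and 405.3, 201.5, 243.1 and 371.2 CPM in the AAV8-AGXT mice, in the order of the animal numbers above. Every AAV8-AGXT mouse was above every AAV8-GFP mouse for Agxt (log2 fold change 0.90 ± 0.22 SE, adjusted p = 0.0489), but the call was lost in limma-voom, with 3 other scalings and with at least 10 counts in every mouse (adjusted p from 0.0502 to 0.0566), and without any single mouse other than 309 (0.0532 to 0.146). Whether read pairs of the human transgene were placed on the mouse gene cannot be told apart from a change of the mouse gene.

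All 8 genes had a higher mean in AAV8-AGXT livers than in AAV8-GFP livers, where 52.3% of all tested genes did, although Aldh5a1 (0) and Gpt2 (-0.05 on the log2 scale) did not when set against hepatocyte markers. Their median log2 fold change was 0.50, against 0.02 over all tested genes. In edgeR's quasi-likelihood test across all genes, with Benjamini-Hochberg adjustment, Abat and Got1 passed an adjusted p of 0.05 as higher genes, and the other 6 did not pass. Across the liver 2.45% of the tested genes were called higher and 1.9% lower. Every AAV8-AGXT mouse lay above every AAV8-GFP mouse for 3 of the 8, Abat, Got1 and Got2, as was the case for 8.93% of all tested genes. Because the genes were picked with this comparison in view, nothing is read from these shares. In bulk liver, fewer cells of a type and less RNA per cell cannot be told apart. DESeq2, which called 6.29% of its 16752 tested genes higher, called Gpt as well.

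**Figure D1:**
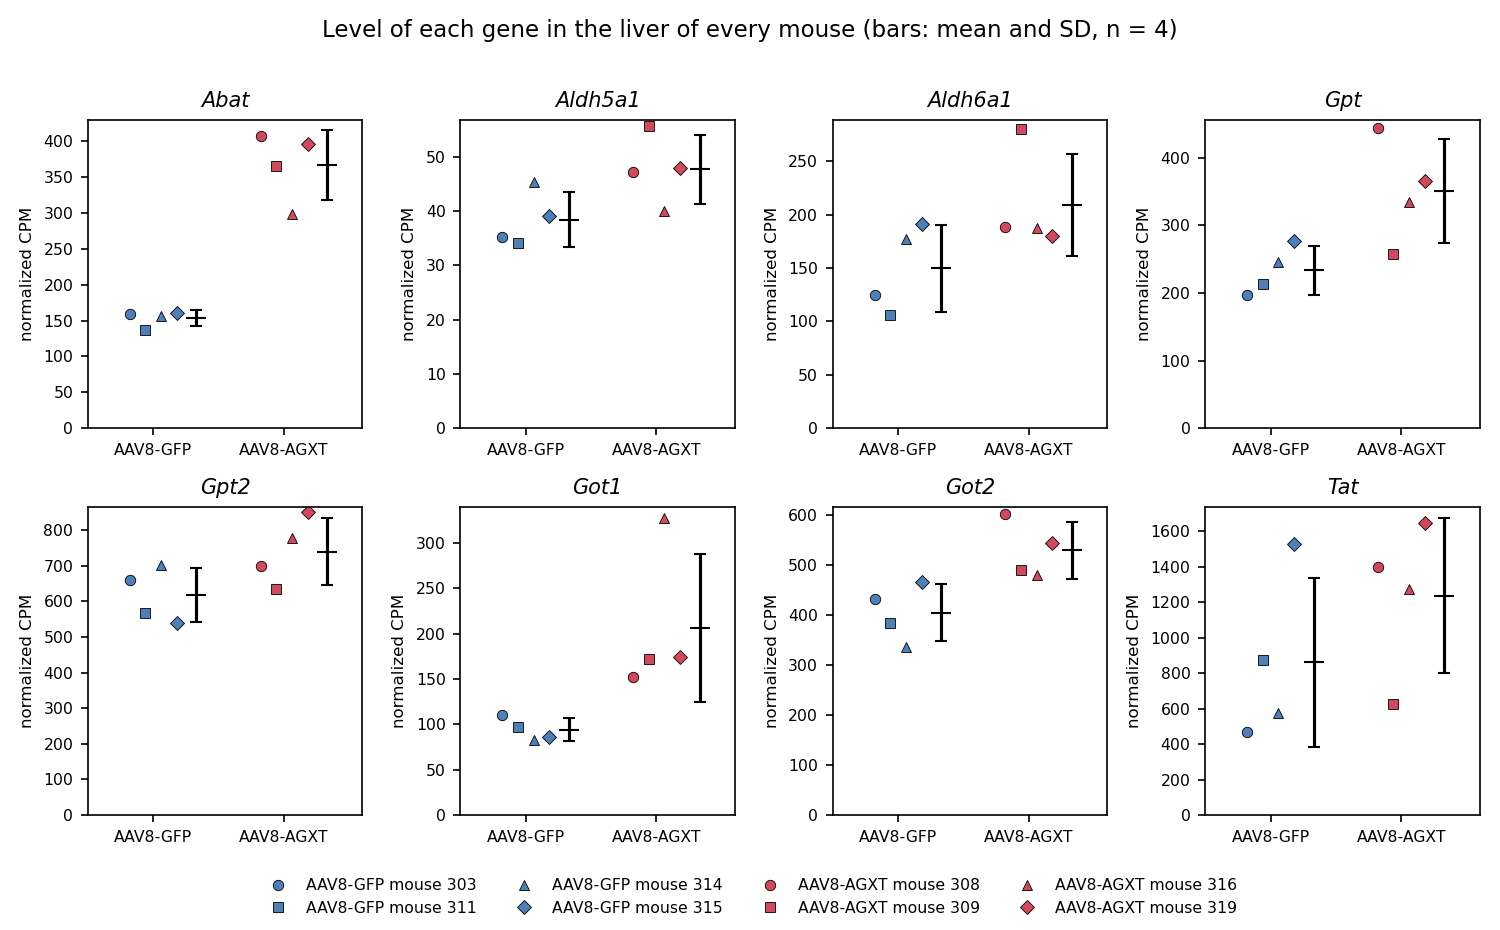
Normalized CPM (y axes, from 0) of the 8 genes in each liver, 4 AAV8-GFP mice in blue and 4 AAV8-AGXT mice in red, with the mean and SD of each group as black bars. The groups are apart for Abat, Got1 and Got2 and overlap for the other 5 genes; the wide bar of Got1 in AAV8-AGXT comes with mouse 316 at 327.5 CPM.

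Abat (ENSMUSG00000057880, GRCm38 chromosome 16, 8513429 to 8621568, plus strand) carried the largest difference of the 8. It measured 159.5, 137.2, 156.7 and 160.8 CPM in AAV8-GFP mice 303, 311, 314 and 315. In AAV8-AGXT mice 308, 309, 316 and 319 it measured 407.4, 364.9, 298.4 and 396.7 CPM. The lowest AAV8-AGXT mouse was therefore well above the highest AAV8-GFP mouse, and the control livers lay close together. The means were 153.6 ± 11.03 and 366.8 ± 49.1 CPM (SD, n = 4 each), a 2.39-fold difference (log2 fold change 1.26 ± 0.13 SE, adjusted p = 0.00924 by edgeR). By p-value Abat ranked 4 among all 15248 genes and 3 among those that were higher. When single mice were left out, the log2 fold change stayed between 1.19 and 1.35. The call was lost only without mouse 311 (1.19, adjusted p = 0.059 by edgeR), a fit that called 2 genes higher and 0 lower over the whole liver. Without mouse 308 the log2 fold change was also 1.19, and the call held (adjusted p = 0.0128 by edgeR).

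Aldh5a1, the next enzyme on the route from GABA to succinate, lies on chromosome 13 (24907579 to 24937661, minus strand). It ranged from 34.1 to 45.3 CPM in AAV8-GFP and from 40.1 to 55.7 CPM in AAV8-AGXT mice. The ranges overlapped, and the difference did not pass the threshold (log2 fold change 0.31 ± 0.13 SE, adjusted p = 0.1599). The ratio of Abat counts to Aldh5a1 counts within a mouse, which needs no scaling between libraries, shows the unequal change of the consecutive steps. It was 4.52, 4.03, 3.46 and 4.12 in the AAV8-GFP mice and 8.64, 6.55, 7.45 and 8.27 in the AAV8-AGXT mice. The ratio was higher in every AAV8-AGXT mouse than in any control, by 0.94 on the log2 scale, and this pair was chosen after its values were seen. The antisense gene 4932702P03Rik covers 14.1% of the exon bases of Aldh5a1, which leaves part of its counts uncertain because the counting is not stated to use strand.

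Aldh6a1 (chromosome 12, 84430717 to 84451004, minus strand) ranged from 106.2 to 190.8 CPM in AAV8-GFP and from 180.1 to 280.0 CPM in AAV8-AGXT mice. A single mouse, 309, held the top value, and the other 3 AAV8-AGXT mice, at 180.1 to 188.3 CPM, lay within the control range. The log2 fold change was 0.48 ± 0.22 SE (adjusted p = 0.191), and 0.29 without mouse 309. Bbof1, on the opposite strand, covers 18.6% of its exon bases but had at most 1.45 CPM.

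Got1 encodes the cytosolic aspartate aminotransferase, which makes oxaloacetate or aspartate on the cytosolic side of the malate-aspartate shuttle. The gene lies on chromosome 19 (ENSMUSG00000025190, 43499752 to 43524605, minus strand). It measured 110.7, 97.2, 82.5 and 86.4 CPM in AAV8-GFP mice 303, 311, 314 and 315, and 151.8, 171.7, 327.5 and 174.8 CPM in AAV8-AGXT mice 308, 309, 316 and 319. All AAV8-AGXT mice were above all controls, and mouse 316 stood far above the other 3. The means were 94.2 ± 12.6 and 206.5 ± 81.3 CPM (SD, n = 4 each), a 2.19-fold difference (log2 fold change 1.13 ± 0.24 SE, adjusted p = 0.0374 by edgeR). Without mouse 316 the log2 fold change was 0.82 and the adjusted p was 0.0346. Leaving out other mice ended the call, with adjusted p = 0.0603 without 303, 0.138 without 311, 0.104 without 314, 0.054 without 315 and 0.0854 without 319. Mouse 316, the highest for Got1, was the lowest AAV8-AGXT mouse for Abat, Aldh5a1 and Got2.

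Got2, which encodes the mitochondrial partner of Got1, lies on chromosome 8 (95864134 to 95888547, minus strand). It measured 432.4, 385.0, 335.5 and 465.4 CPM in the AAV8-GFP mice and 602.9, 489.9, 479.8 and 544.5 CPM in the AAV8-AGXT mice. The groups did not overlap but nearly met, at 465.4 and 479.8 CPM. The log2 fold change was 0.39 ± 0.14 SE, and neither edgeR (adjusted p = 0.123) nor DESeq2 (adjusted p = 0.0507) called it. Of the 50-base windows of its longest transcript, 47.2% also occur in another gene, among them the pseudogene Got2-ps1. Read pairs with several alignments were tallied apart from the genes (17.4% to 23.4% of all tallied read pairs). The Got2 count may therefore miss some of its read pairs. Got2-ps1 had 0.483 to 1.46 CPM, which does not tell how many were missed. Gm45760 on the opposite strand covers 9% of its exon bases.

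The ratio of Got2 to Got1 counts was 3.91, 3.96, 4.07 and 5.38 in the AAV8-GFP mice and 3.97, 2.85, 1.47 and 3.11 in the AAV8-AGXT mice. The mean log2 ratio differed by -0.68, from 2.1 ± 0.22 to 1.42 ± 0.62 (SD, n = 4 each). Mouse 308 reached the control range, so the groups overlapped, and without mouse 316 the difference was -0.39. The ratio was below that of every control in 3 of the 4 AAV8-AGXT mice, by an amount that varied widely between them.

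Promoter windows are the 250 bases before the transcription start that RefSeq gives in GRCm38.p6, and windows of 6 of the 8 genes were used here. Those of Abat and Gpt were not analysed here. The windows of Got1 and Got2 are printed because these genes encode the compartment forms of the same enzyme, and that of Tat because its transcript is the most abundant per length. Each reads 5′ to 3′ on the gene's strand, and capitals mark the letters CCAAT or TATAAA on either strand (ATTGG or TTTATA when read from the other).

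Got1 promoter, chr19:43524606-43524855, minus strand: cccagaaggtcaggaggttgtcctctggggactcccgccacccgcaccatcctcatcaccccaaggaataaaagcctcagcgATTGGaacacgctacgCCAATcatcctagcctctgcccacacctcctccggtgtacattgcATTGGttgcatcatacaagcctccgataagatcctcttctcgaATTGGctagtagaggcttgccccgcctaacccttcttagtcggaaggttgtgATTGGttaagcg

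Got2 promoter, chr8:95888402-95888651, minus strand: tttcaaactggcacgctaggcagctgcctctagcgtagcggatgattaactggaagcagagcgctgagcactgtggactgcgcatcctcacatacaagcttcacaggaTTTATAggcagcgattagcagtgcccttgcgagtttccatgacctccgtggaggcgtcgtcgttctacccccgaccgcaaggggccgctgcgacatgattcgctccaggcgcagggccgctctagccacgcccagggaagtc

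Tat promoter, chr8:109990186-109990435, plus strand: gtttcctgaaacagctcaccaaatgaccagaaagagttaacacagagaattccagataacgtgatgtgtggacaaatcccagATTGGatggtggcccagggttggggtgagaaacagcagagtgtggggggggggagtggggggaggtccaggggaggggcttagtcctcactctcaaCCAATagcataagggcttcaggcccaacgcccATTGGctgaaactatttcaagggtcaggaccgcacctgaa

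The Got1 window holds 5 CCAAT matches, the first bases of which lie 168, 152, 107, 64 and 12 bases before the start. At least 1 match occurs in 33.8% of the 32851 mouse windows of this length, and 5 or more in 0.213% of them. Tat has 3 matches and Got2 none. The Got2 window has a TATAAA match, 142 bases before the start, as do 12.4% of all windows, and neither Got1 nor Tat has one. The RefSeq start of Got2 lies inside the GENCODE gene given above, so a stretch of its window, that match included, belongs to the annotated gene. The upstream of the 2 windows of Aldh6a1 has 4 CCAAT matches, that of Aldh5a1 has 1 and that of Gpt2 has none. Of 6 other motifs searched on both strands, GGGCGG had 2 matches in the Gpt2 window (32.7% of all windows hold it), and AGGTCA had 1 each in those of Got1, Got2 and the downstream window of Aldh6a1 (14% of all windows). No match was found in these windows for CACGTG (6.02% of all windows), TGACGTCA (1.55%), TGTTCT (16.1%) or TTATGTAA (0.819%). A match is a run of letters and no measured binding site, and the absence of a match speaks only of these letters in this window.

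Gpt, which encodes the cytosolic alanine aminotransferase, lies on chromosome 15 (ENSMUSG00000022546, 76695716 to 76699686, plus strand). It measured 196.4, 213.7, 246.6 and 277.0 CPM in the AAV8-GFP mice and 443.9, 258.3, 334.7 and 365.7 CPM in the AAV8-AGXT mice. Only mouse 309 fell within the control range. The means were 233.4 ± 35.8 and 350.7 ± 76.8 CPM (SD, n = 4 each), a 1.502-fold difference. The log2 fold change of 0.59 ± 0.18 SE missed the threshold in edgeR (adjusted p = 0.0825) and passed it in DESeq2 (adjusted p = 0.0209), and in edgeR when mouse 309 was left out (adjusted p = 0.0469). The transcripts of both serum enzymes, Gpt and Got1, thus had higher means in AAV8-AGXT livers, of which the difference for Got1 alone was called by both tools. These are transcript levels in liver tissue, and enzyme activity in blood was not measured in these files. The paper reports that plasma AST and ALT were significantly lower with AAV8-AGXT than with AAV8-GFP on this diet, so the transcript means do not stand for the blood values.

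Gpt2, the mitochondrial alanine aminotransferase, lies on chromosome 8 (85492576 to 85527560, plus strand). It ranged from 540.2 to 702.6 CPM in AAV8-GFP and from 633.5 to 849.4 CPM in AAV8-AGXT mice. This was the smallest difference of the 8 (log2 fold change 0.26 ± 0.14 SE, adjusted p = 0.280). The ratio of Gpt2 to Gpt counts was 3.35, 2.65, 2.85 and 1.95 in the controls and 1.57, 2.45, 2.32 and 2.32 in the AAV8-AGXT mice. The groups overlapped, with a difference of -0.31 in the mean log2 ratio that was -0.17 without mouse 308, the lowest, and -0.46 without mouse 315.

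**Figure D2:**
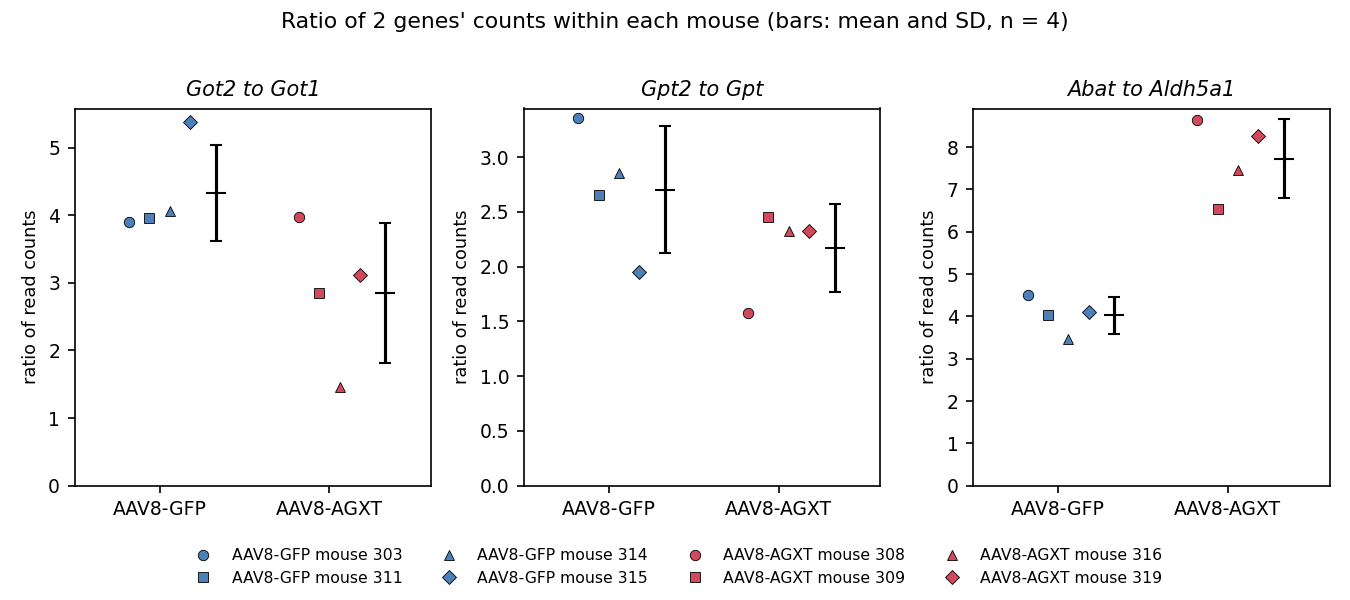
Ratio of the raw read counts of a pair of genes within each mouse (y axes, from 0), with the mean and SD of the 4 mice of each group. The Got2 to Got1 and Gpt2 to Gpt ratios overlap between the groups. The Abat to Aldh5a1 ratio, a pair chosen after its values were seen, is 3.46 to 4.52 in AAV8-GFP and 6.55 to 8.64 in AAV8-AGXT mice.

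Tat, which starts the breakdown of tyrosine and is a classic gene of glucocorticoid and fasting responses, lies on chromosome 8 (109990437 to 109999803, plus strand). It measured 466.9, 872.1, 574.2 and 1529 CPM in the AAV8-GFP mice and 1400, 627.4, 1277 and 1648 CPM in the AAV8-AGXT mice. Single mice crossed over in both groups, 315 among the controls and 309 among the AAV8-AGXT mice. The log2 fold change of 0.52 had an SE of 0.39 (adjusted p = 0.421), and without mouse 315 it was 0.96 (adjusted p = 0.117). Within a group Tat spread by a factor of 3.27 in AAV8-GFP and 2.63 in AAV8-AGXT mice between the lowest and the highest liver.

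**Figure D3:**
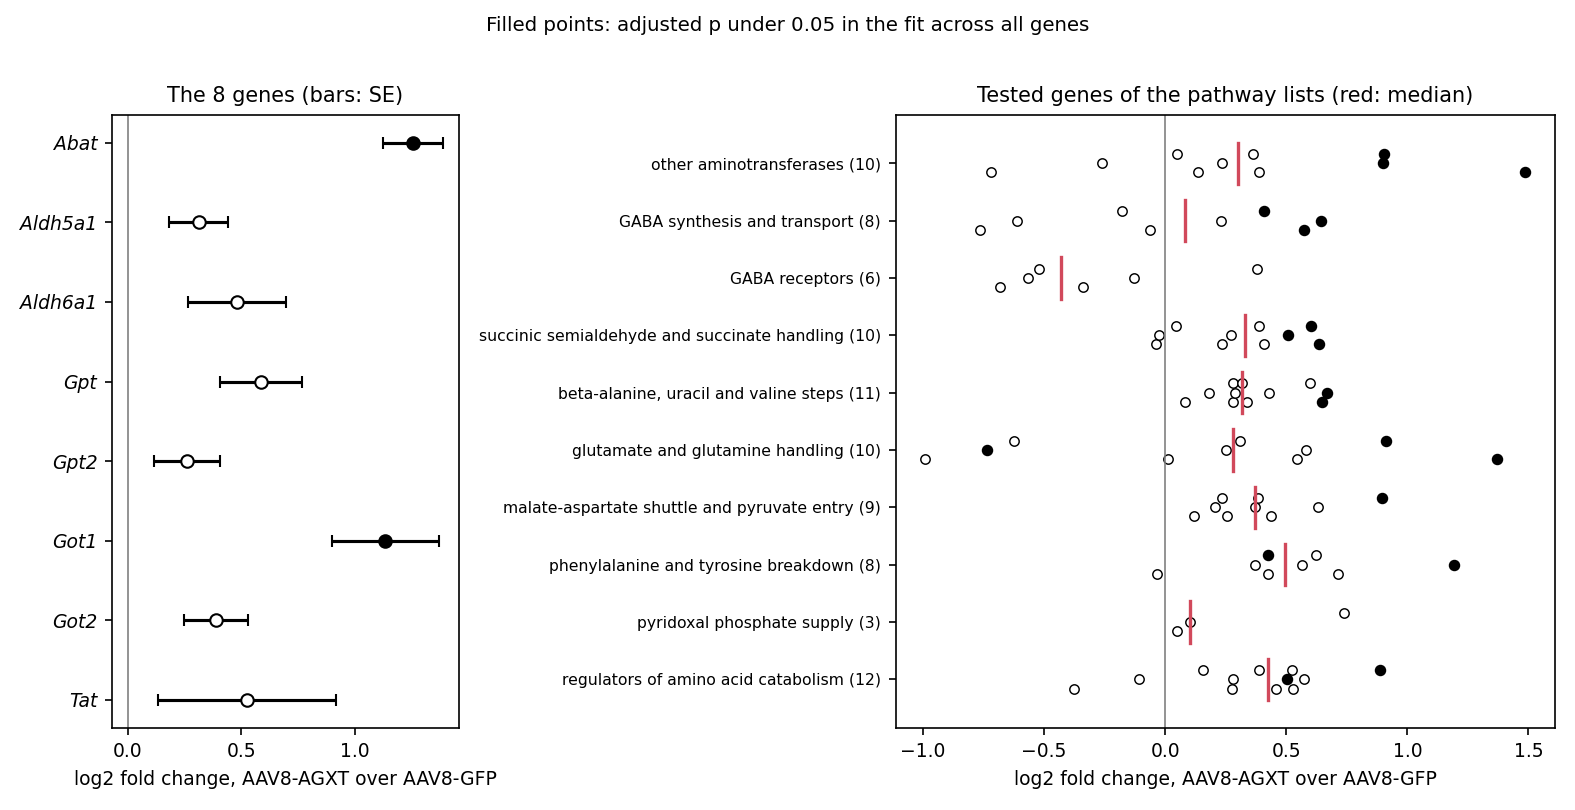
Log2 fold change of AAV8-AGXT over AAV8-GFP for the 8 genes with their SE (left) and for each tested gene of 10 pathway lists with the median of each list in red (right). Filled points passed an adjusted p of 0.05, which among the 8 genes holds for Abat (1.26) and Got1 (1.13), and in the lists for 18 higher genes and 1 lower gene of 87.

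Per length of exon the 8 transcripts differed widely in level. In AAV8-GFP mice Tat came first with 357.8 ± 198.5 CPM per kb of exon (SD, n = 4), followed by Gpt2 (109.4 ± 13.5), Got2 (83.9 ± 11.7), Gpt (79.4 ± 12.2), Got1 (37.1 ± 4.98), Aldh6a1 (25.9 ± 7.02), Abat (19.8 ± 1.42) and Aldh5a1 (6.81 ± 0.898). The ranges over mice overlapped between Gpt2 and Got2, between Got2 and Gpt, between Got1 and Aldh6a1 and between Aldh6a1 and Abat, so these neighbours do not differ beyond their spread. Tat stood apart from Gpt2, Gpt from Got1, and Abat from Aldh5a1. In AAV8-AGXT mice the order was Tat (514.8 ± 181.0 CPM per kb), Gpt2 (131.1 ± 16.7), Gpt (119.2 ± 26.1), Got2 (109.7 ± 11.8), Got1 (81.3 ± 32.0), Abat (47.4 ± 6.33), Aldh6a1 (36.1 ± 8.21) and Aldh5a1 (8.45 ± 1.13). Gpt passed Got2 and Abat passed Aldh6a1 in this order, each by a difference within the spread of the mice. The place of Gpt depends on the length used, since per kb of the longest transcript Got2 stayed above Gpt in AAV8-AGXT mice (209.2 against 125.1) as in AAV8-GFP mice (159.9 against 83.2). The enzyme that makes succinic semialdehyde was thus encoded by a transcript more abundant per length than the enzyme that removes it, in both groups.

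**Figure D4:**
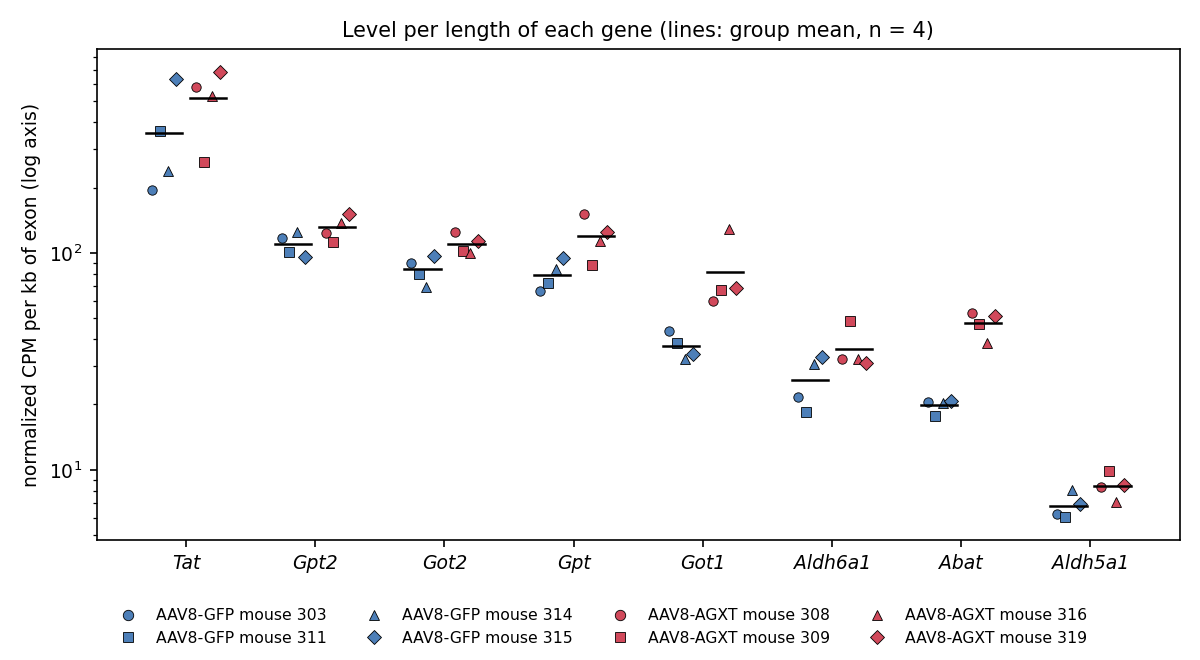
Normalized CPM per kb of exon (log axis) of the 8 genes in each liver, ordered by the AAV8-GFP mean, with black lines for the mean of the 4 mice of each group. Tat is highest and Aldh5a1 lowest in both groups, and the step from Abat down to Aldh5a1 is wider in AAV8-AGXT (47.4 to 8.45) than in AAV8-GFP mice (19.8 to 6.81).

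The 8 genes also differed in how much the mice of a group varied. The coefficient of variation of Abat was 7.18% in AAV8-GFP mice, where tested genes of like abundance had a median of 11.4%. Abat was chosen partly by its p-value, which a small spread within groups lowers, so nothing is read from this value. That of Tat was 55.5%, above 93.2% of genes of like abundance, and that of Aldh6a1 was 27.1%, above 91.2%. In AAV8-AGXT mice Got1 was the most variable at 39.4%, above 94.0% of genes of like abundance, and Got2 the least at 10.7%. Control mouse 315 was the highest of its group for 5 of the 8 genes (Abat, Aldh6a1, Gpt, Got2 and Tat), and no AAV8-AGXT mouse was the highest for more than 3.

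Levels of cell type markers are given for both groups, since most of their means differed although few were called. All 10 hepatocyte markers were detected, 9 had a higher mean in AAV8-AGXT livers and none was called (median log2 fold change 0.38). Their summed level was 50030 to 60270 CPM in AAV8-GFP and 59050 to 82680 CPM in AAV8-AGXT mice. Markers of stellate cells and fibroblasts had lower means in 7 of 8 cases (summed 531.7 to 967.5 against 214.2 to 600.2 CPM), of cholangiocytes in 6 of 6 (225.2 to 675.8 against 74.3 to 273.8 CPM) and of macrophages in 5 of 8 (449.7 to 779.1 against 217.3 to 626.3 CPM), with Cd163 alone called, as higher. Markers of T, B and NK cells had lower means in 5 of 8 cases (11.6 to 18.3 against 5.83 to 12.6 CPM) and endothelial ones higher means in 6 of 6 (124.6 to 188.5 against 134.5 to 240.2 CPM), with none called in either list. Markers of pericentral hepatocytes had higher means in 9 of 9 cases, 3 of them called, with sums of 6854 to 8522 against 14050 to 17960 CPM, most of it Cyp2e1. Periportal markers had higher means in 8 of 9 cases, with Asl called (4297 to 7211 against 6629 to 8278 CPM). Muscle and kidney markers were near 0, with summed levels of at most 0.351 CPM and Myh4 and Slc12a1 at 0 in all mice.

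Set against the geometric mean of the 10 hepatocyte markers in the same mouse, Abat was still higher in every AAV8-AGXT mouse than in any control, by 0.94 on the log2 scale. On this scale Got1 differed by 0.76, Tat by 0.28, Gpt by 0.26, Aldh6a1 by 0.19 and Got2 by 0.08, with overlap between the groups in each case. Aldh5a1 was level at 0, and Gpt2 turned to -0.05. This reference was added after the marker values had been seen. The log2 fold changes of the markers themselves ran from -0.35 to 0.77, so the reference cannot separate cell composition from expression. The part of cell composition in the differences was not tested.

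The pathways around the 8 genes were described with 10 lists holding 107 symbols, of which 106 were in the tables and 87 passed the filter on low counts. Of these 87, 68 had a higher mean in AAV8-AGXT livers, 18 were called higher and 1 lower, with a median log2 fold change of 0.32 against 0.02 over all tested genes. Over all tested genes 52.3% had a higher mean, 2.45% were called higher and 1.9% lower. No listed gene was called in all 8 fits that left out a mouse. The number called was 3 without 303, 0 without 311, 0 without 314, 12 without 315, 4 without 308, 17 without 309, 13 without 316 and 0 without 319. DESeq2 called 35. Of the 19 called genes, which include Agxt, 8 passed in every tool, scaling and filter tried with all mice (Oat, Sucla2, Upb1, Slc1a2, Slc38a3, Slc25a13, Hpd and Ppara). The other 11 lost the call in at least 1 of these settings (Agxt, Aadat, Aldh9a1, Odc1, Slc6a12, Suclg1, Sdhd, Bckdha, Slc1a5, Gch1 and Cebpa). The lists were written with earlier results of these livers known, and their counts are a description.

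Among other aminotransferases, leaving aside Agxt, whose row may hold transgene read pairs, 2 of 9 tested genes were called higher and none lower. A lower mean was seen in 2 of the 9, neither of them called. Oat, the ornithine aminotransferase of the pericentral zone, measured 1079, 697.8, 709.2 and 724.1 CPM in the AAV8-GFP mice and 2696, 1472, 2353 and 2464 CPM in the AAV8-AGXT mice. It had the largest difference of all listed pathway genes (log2 fold change 1.48 ± 0.22 SE, adjusted p = 0.0246), and the groups did not overlap. Aadat, which acts on aminoadipate and kynurenine, rose from 65.2 ± 14.6 to 122.1 ± 29.1 CPM (adjusted p = 0.0427). The mitochondrial Agxt2, the other alanine-glyoxylate aminotransferase, stood at 209.0 ± 14.8 and 216.0 ± 23.8 CPM (adjusted p = 0.835), and the kynurenine aminotransferase Kyat3 at 110.4 ± 60.7 and 92.3 ± 13.5 CPM (adjusted p = 0.629).

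Of 14 genes for GABA synthesis, for GABA transport and for the polyamine route to GABA, 8 were tested. The genes for glutamate decarboxylase, which makes GABA in neurons, were barely seen, with Gad2 at 0 in all mice and Gad1 at a mean of 0.0384 CPM in AAV8-GFP and 0 in AAV8-AGXT mice. Of the tested genes, 4 had a higher mean and 4 a lower one (median log2 fold change 0.08), and 3 were called, all as higher. Aldh9a1, which oxidizes aminobutyraldehyde to GABA, had 211.7 ± 19.4 and 314.8 ± 38.3 CPM (adjusted p = 0.0436), and Odc1, which makes putrescine, had 60.8 ± 1.82 and 94.95 ± 19.3 CPM (adjusted p = 0.0413). Slc6a12, a transporter of betaine and GABA, had 50.3 ± 1.72 and 66.8 ± 3.66 CPM (adjusted p = 0.0363). Slc6a13, which encodes another GABA transporter, had 232.2 ± 26.2 and 222.3 ± 28.4 CPM (adjusted p = 0.7996). Sat1, which acetylates polyamines, had 224.9 ± 11.2 and 147.3 ± 34.2 CPM, without overlap. It did not pass in edgeR (adjusted p = 0.0653) and passed in DESeq2 (0.0108), with total counts (0.043) and without mouse 309 (0.0405).

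GABA receptor genes were scarce in these livers. Of 15, 5 were at 0 in all mice, 6 passed the filter and none was called. Of the 6, 5 had a lower mean in AAV8-AGXT livers, with a median log2 fold change of -0.43 against 0.02 over all tested genes. The highest CPM were those of the metabotropic subunits Gabbr2, with 18.9 ± 4.09 and 17.2 ± 2.93 CPM (adjusted p = 0.677), and Gabbr1, with 17.01 ± 4.90 and 11.9 ± 2.47 CPM (adjusted p = 0.179).

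Around Abat and Aldh5a1, 3 of 10 genes for the handling of succinic semialdehyde and succinate were called higher and none lower. A lower mean was seen in 2 of the 10. Sucla2 and Suclg1, subunits of succinyl-CoA ligase, went from 86.2 ± 9.68 to 130.8 ± 10.4 CPM (adjusted p = 0.0341) and from 213.3 ± 15.3 to 331.8 ± 61.04 CPM (adjusted p = 0.0448). Sdhd, a membrane anchor of succinate dehydrogenase, went from 134.1 ± 11.7 to 190.6 ± 22.8 CPM (adjusted p = 0.0489), a call lost under 4 other settings (adjusted p from 0.0523 to 0.121) and without any single mouse other than 309 (0.0647 to 0.166). The flavoprotein subunit gene Sdha had 308.9 ± 45.2 and 404.5 ± 44.9 CPM (adjusted p = 0.123). Akr1a1, an aldehyde reductase, stood at 451.6 ± 27.5 and 465.5 ± 28.9 CPM (adjusted p = 0.840).

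All 11 genes listed for the beta-alanine, uracil and valine steps around Abat and Aldh6a1 had higher means, and 2 were called. Upb1, which releases beta-alanine in uracil breakdown, had 246.6 ± 20.1 and 386.2 ± 56.0 CPM (log2 fold change 0.65 ± 0.13 SE, adjusted p = 0.0373). Bckdha, of the branched-chain keto acid dehydrogenase, had 34.1 ± 6.40 and 54.2 ± 8.08 CPM (adjusted p = 0.0454), but B3gnt8 on the opposite strand covers 61.7% of its exon bases. The valine gene Hibadh had 278.4 ± 47.5 and 315.6 ± 29.5 CPM (adjusted p = 0.449), and the uracil gene Dpys 197.8 ± 21.6 and 246.6 ± 31.2 CPM (adjusted p = 0.161).

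Glutamate is the shared partner of the aminotransferases. Of 10 tested genes of glutamate and glutamine handling, 2 were called higher and 1 lower, and 3 had a lower mean. Slc1a2, a glutamate transporter of pericentral hepatocytes, had 182.5, 125.6, 109.1 and 168.5 CPM in the AAV8-GFP mice and 455.0, 266.2, 407.2 and 387.3 CPM in the AAV8-AGXT mice (log2 fold change 1.37 ± 0.21 SE, adjusted p = 0.0246). Slc38a3, a glutamine transporter, rose from 853.0 ± 110.1 to 1603 ± 358.0 CPM (adjusted p = 0.0373), and the scarce transporter gene Slc1a5 fell from 13.4 ± 2.18 to 8.03 ± 1.64 CPM (adjusted p = 0.0495). Glud1, the glutamate dehydrogenase that releases ammonia, had 777.2 ± 145.6 and 783.8 ± 102.5 CPM (adjusted p = 0.973), and Glul, the glutamine synthetase, 1483 ± 346.8 and 2223 ± 245.5 CPM (adjusted p = 0.0846).

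Got1 and Got2 work with the carriers of the malate-aspartate shuttle, and of the 9 genes of the shuttle and of pyruvate entry all had higher means. Slc25a13, the liver aspartate-glutamate carrier also called citrin, was the called gene, with 121.0 ± 17.9 and 225.1 ± 24.3 CPM (log2 fold change 0.90 ± 0.14 SE, adjusted p = 0.0246). Ldha had 1207 ± 140.8 and 1869 ± 689.8 CPM (adjusted p = 0.141), and the pyruvate carboxylase gene Pcx 666.0 ± 68.8 and 902.7 ± 130.8 CPM (adjusted p = 0.0990).

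In phenylalanine and tyrosine breakdown, the route that Tat feeds, 2 of 8 genes were called higher and none lower, and 1 had a lower mean. Hpd, the dioxygenase that takes the product of Tat, had 1225 ± 112.8 and 2796 ± 910.2 CPM without overlap (log2 fold change 1.19 ± 0.22 SE, adjusted p = 0.0336), whereas Tat itself was not called. Gch1, which starts the synthesis of tetrahydrobiopterin, had 121.6 ± 8.28 and 163.2 ± 11.4 CPM (adjusted p = 0.0489). The last steps Gstz1, with 532.4 ± 42.9 and 787.7 ± 136.0 CPM, and Fah, with 542.6 ± 36.3 and 701.6 ± 103.0 CPM, did not pass in edgeR (adjusted p = 0.0610 and 0.128) and passed in DESeq2 (adjusted p = 0.00261 and 0.0458).

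None of the 3 tested genes for pyridoxal phosphate supply was called. Plpbp, which encodes a protein that binds pyridoxal phosphate, had 85.5 ± 14.9 and 88.4 ± 9.55 CPM (adjusted p = 0.858). Among 12 regulators of amino acid catabolism 2 were called higher and none lower, and 2 had a lower mean. Ppara, the receptor for fatty acids that drives their oxidation, went from 43.3 ± 5.06 to 80.1 ± 22.1 CPM (adjusted p = 0.0376), and Cebpa, a factor of mature hepatocytes, from 352.6 ± 16.8 to 499.4 ± 39.2 CPM (adjusted p = 0.0429). Hnf4a had 551.4 ± 61.9 and 757.8 ± 73.9 CPM (adjusted p = 0.0765), and the stress-responsive Atf4 183.6 ± 24.3 and 170.2 ± 13.4 CPM (adjusted p = 0.611).

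The genes whose pattern over the 8 mice was most like that of Abat were found by the root mean square distance between log2 CPM profiles, each centred on its own mean, among 13745 genes. They were Mug1 (distance 0.075), Gfra1 (0.079), Gm4737 (0.105), Cyp2e1 (0.113) and Fgf1 (0.148), where the median gene was at 0.667. All 5 were higher in every AAV8-AGXT mouse than in any control, with log2 fold changes from 1.13 to 1.19, which their selection by likeness to Abat fixes and which is no separate result. Cyp2e1, a cytochrome P450 of pericentral hepatocytes, measured 5934, 5151, 5601 and 5113 CPM in the AAV8-GFP mice. In the AAV8-AGXT mice it measured 14100, 11560, 10710 and 11880 CPM. Mouse 316 was the lowest of its group, as for Abat, whereas control 315 was the lowest for Cyp2e1 and the highest for Abat. No other of the 8 genes was close to the pattern of Abat. Gpt came nearest at 0.406, rank 534, then Got2 at 0.451 and Got1 at 0.458, and Tat was the farthest at 0.686, beyond the median gene.

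**Figure D5:**
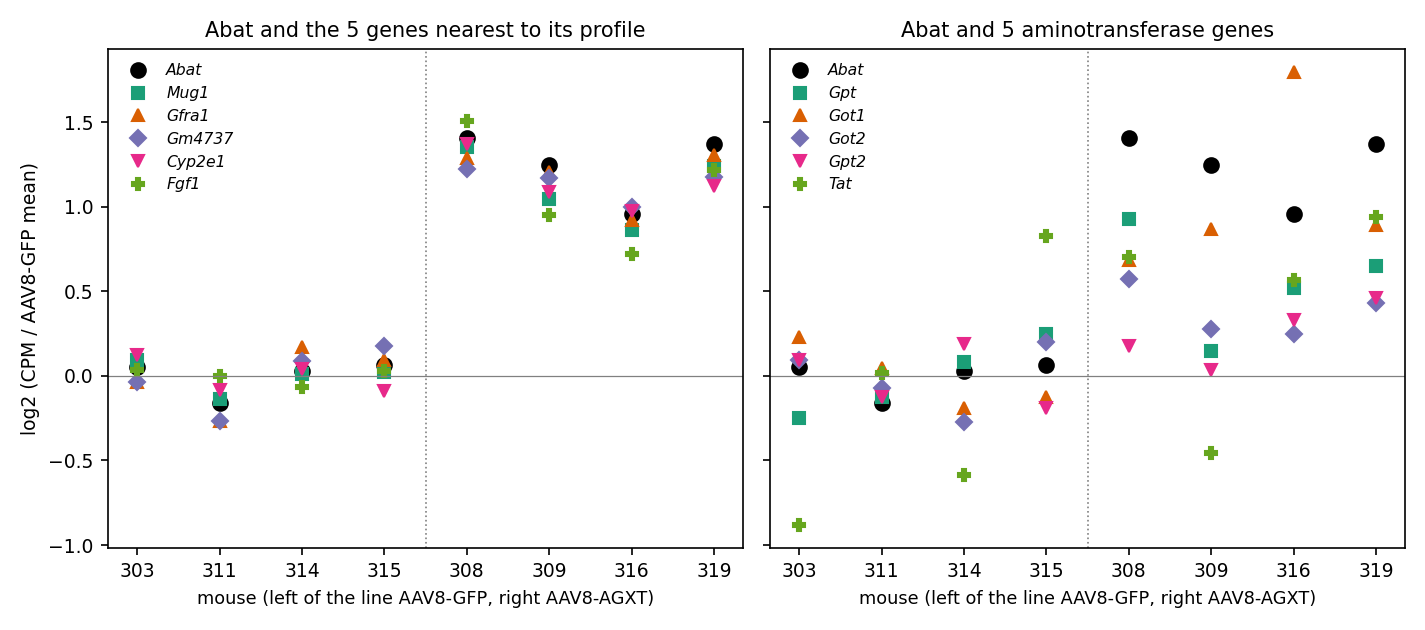
Log2 of the CPM of each mouse over the AAV8-GFP mean of the gene (y axis), for Abat and the 5 genes nearest to its profile (left) and for Abat and 5 aminotransferase genes (right), with AAV8-GFP mice left of the dotted line. The nearest genes, chosen by this likeness, share with Abat the step between the groups and mouse 316 as the lowest AAV8-AGXT mouse. Among the controls they do not all follow Abat, since Cyp2e1 is lowest in mouse 315, where Abat is highest. Got1 is highest in mouse 316, and Tat spreads over both groups.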

How the data were processed

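Liver RNA of 8 mice, 1 library each, was measured by stranded mRNA sequencing. The authors trimmed the read pairs (Trimmomatic 0.35), aligned them with HISAT2 2.1.0.13 to GRCm38, and ran HTSeq against Ensembl genes. The deposited values are these raw counts, neither normalized nor filtered, and the strand setting of HTSeq is not given in the sources used here. The authors tested with DESeq2.

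Groups come from the sample labels. The 5 tally rows of HTSeq were left out of library sizes (genes held 56.3% to 69.1% of all tallied read pairs). Identifiers were matched to GENCODE M21 on GRCm38 (52489 of 52636). Here genes were filtered with filterByExpr, scaled by TMM and tested with the quasi-likelihood test of edgeR 4.0.16 in R 4.3.3, treatment as the only term, Benjamini-Hochberg adjustment over 15248 genes and a threshold of 0.05. CPM are TMM-scaled, and log2 CPM use a prior count of 2. The common biological coefficient of variation was 23.3%. Scripts were tested on simulated data. The p-values test the difference between the 2 groups against the spread between mice.

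Alternatives were DESeq2 1.42.0, limma-voom (limma 3.58.1), robust estimation, other scalings and filters, and leaving out each mouse. The 8 genes and all lists were chosen with earlier results of these data known. Named are the 8 genes, from each list the called genes and the 2 others with the highest CPM, and the 5 genes nearest to Abat with a mean of at least 1 CPM. For the spread, genes of like abundance are those within 0.5 on the log2 scale. Promoter windows are from RefSeq, GRCm38.p6. Pdxp was not analysed here, and 1 gene that the naming rule selects is not reported here.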

Additional observations from a re-analysis of the deposited data

Results flagged for a closer look

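In 4 of 22 groups of 4 values a mouse stood far from the other 3, measured as its gap to the nearest value divided by the range of the group and set against the critical value of Dixon's test for 4 values. Chance flags about 1 in 20 such groups. Aldh6a1 was 280 CPM in AAV8-AGXT mouse 309 (gap over range 0.918). Got1 was 327.5 CPM in AAV8-AGXT mouse 316 (0.869). The count ratio of Got2 to Got1 was 5.384 in AAV8-GFP mouse 315 (0.891). The count ratio of Gpt2 to Gpt was 1.572 in AAV8-AGXT mouse 308 (0.853), the mouse with the smallest share of read pairs on genes. Each distant value comes from a different mouse, and why these livers stood apart was not tested.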

How the results depend on the processing

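No paired analysis was possible because the 2 groups share no animal numbers. Over all genes, 374 were called higher and 290 lower. DESeq2 called 1054 and 1024, and total counts without a composition factor 144 and 857, which moved the median log2 fold change of all genes from 0.02 to -0.22 and the share of calls that were higher from 56.3% to 14.4%. With a mouse left out the calls ranged from 2 to 379 higher and from 0 to 325 lower. Without mouse 311, 2663 genes still had an unadjusted p under 0.05. Of the 8 genes, 2 were called, 3 in DESeq2, 1 with total counts and 0 to 3 with a mouse left out. All 8 log2 fold changes stayed above 0 and above the median of all genes in each tool, scaling, filter and left-out mouse run. With total counts, however, Gpt2 was only 0.02 (adjusted p = 0.935 by edgeR) and Aldh5a1 0.08 (adjusted p = 0.724). Relative to the hepatocyte markers Aldh5a1 was 0 and Gpt2 was -0.05. Abat ranged from 1.19 to 1.35 with a mouse left out, and was 0.94 relative to the hepatocyte markers. Total counts ended the call of Got1 (0.92, adjusted p = 0.0633). Of the pathway genes, 19 were called (18 higher), 35 (31 higher) in DESeq2, 11 (8 higher) with total counts and 0 to 17 (0 to 16 higher) with a mouse left out. By the longest transcript instead of all exons, 5 of 8 ranks per length were shared in AAV8-AGXT mice and 8 of 8 in AAV8-GFP mice.

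Among named genes that were not called, some changed sign. With upper-quartile factors Agxt2 was -0.02, Akr1a1 -0.02, Glud1 -0.05 and Plpbp -0.01. With total counts Agxt2 was -0.19, Akr1a1 -0.19, Hibadh -0.05, Glud1 -0.22 and Plpbp -0.18. Glud1 was also -0.00 with the size factors of DESeq2, -0.01 without a filter and -0.03 with at least 10 counts in every mouse. With a mouse left out the values ranged from -0.02 to 0.09 for Agxt2, from -0.45 to 0.20 for Kyat3, from -0.14 to 0.02 for Slc6a13, from -0.23 to 0.02 for Gabbr2, from -0.07 to 0.10 for Glud1 and from -0.03 to 0.17 for Plpbp. The causes were not tested. Depth limits little here, since each of the 8 genes had at least 683 counts in every mouse, and 4 mice a group limit what the tests can call.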
